A study of Mus musculus with 12 samples.

Results

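The genes described here are the 88 protein-coding cadherin and protocadherin genes of the mouse that are named Cdh or Pcdh and a number, or belong to the alpha, beta or gamma protocadherin cluster, among the 55416 genes in the count files. Cdh1, Cdh2, Cdh3, Cdh4, Cdh23 and Pcdh15 were left out by that rule, which used names and no measured value. By subfamily, the set held 13 type II cadherins, 5 other single cadherins, 4 delta-1, 5 delta-2 and 2 other non-clustered protocadherins, and 15 alpha, 22 beta and 22 gamma cluster genes. RNA was sequenced from inner hair cells (IHCs, 6 pools) and outer hair cells (OHCs, 6 pools), the sensory cells of the cochlea, taken from mice at postnatal day 0. All samples are labelled as wild type from the organ of Corti. IHCs were sorted by GFP from Atoh1-GFP, a reporter active in hair cells, and OHCs by Atoh1-GFP, Insm1-GFP-Cre and the R26-TdTomato reporter, so that the OHC gate rests on Cre expressed from the Insm1 locus. The methods say that each pool was drawn from several pups of both sexes. Nothing in the labels pairs an IHC with an OHC pool, and the libraries are called IHC1 to IHC6 and OHC1 to OHC6 by their labelled replicate numbers.

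Cadherins are calcium-dependent adhesion molecules with repeated extracellular domains, and the type II members bind catenins in the cell and sort neurons and other cells into layers and groups. Protocadherins share the extracellular repeats but not the catenin-binding tail. The clustered protocadherins lie in tandem arrays in which single neurons switch on a few variable exons each, and in the alpha and gamma clusters each of these is spliced to constant exons that all genes of the cluster share. In the cochlea, the cadherins best known are those left out here, Cdh23 and Pcdh15, which form the tip links of hair bundles, and Cdh1 and Cdh2, which hold junctions together.

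Levels are in CPM, the counts of a gene relative to the library's size after TMM normalisation by edgeR. A member was called enriched where edgeR's quasi-likelihood test gave a p-value under 0.05 after Benjamini-Hochberg adjustment over all genes tested. Fold changes compare OHCs with IHCs, and a negative log2 value marks a gene higher in IHCs. The SE given with a log2 fold change was derived from the quasi-likelihood test and is approximate. It is the absolute log2 fold change divided by the square root of the test's F statistic. Counts on genes ran from 29564827 to 44017309 per library, of which ribosomal RNA took 21.5% to 56.9% in IHC libraries and 23.4% to 36.4% in OHC libraries. The 56.9% was in IHC1, whose TMM factor was 0.486, beside 0.902 to 1.23 in the other libraries. Its size after normalisation was 15289551, beside 29975818 to 46384061 in the others. The part of this in the IHC1 levels given below was not tested. The 4 genes fixed as a check of the IHC label were all IHC-enriched, and the 5 fixed for the OHC label, Insm1 among them, were all OHC-enriched. The study reported these genes as enriched from the same RNA-seq data, and the OHC gate uses the Insm1 locus. The check is therefore not independent of the data. The reads carry no molecular identifiers, so intervals from counts cover counting error only, and nothing states that pools of a cell type came from separate litters, so p-values measure the spread between these pools.

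Of the 88 members, 47 had counts high enough to be tested, against 13269 of all 55416 genes. Of these 47, 4 were IHC-enriched (Cdh11, Cdh18, Pcdh1 and Pcdh7), and 2 were OHC-enriched (Cdh5 and Pcdh12). The IHC calls made up 8.51% of the members tested, beside 3.81% of all genes tested, and the OHC calls 4.26%, beside 2.44%. All 6 calls fell among the 29 non-clustered genes, of which 13 were tested. The same test called 0 of the 34 clustered protocadherins tested, of which 8 had an unadjusted p-value under 0.05. The share of all genes tested with such an unadjusted p-value is not given, so unadjusted counts here and below are not read as trends. DESeq2 called 4 clustered protocadherins IHC-enriched and 7 OHC-enriched, of which 6 were too low for the quasi-likelihood test, and edgeR's exact test called 1 in each direction. Over all members with an adjusted p-value in DESeq2, 67 in number, 8 were IHC-enriched and 12 OHC-enriched (11.9% and 17.9%), but DESeq2 also called more of all genes, 7.57% and 8.98%. The exact test called 5 and 4 of the 47 members, beside 5.66% and 3.91% of all genes tested. Whether clustered and non-clustered genes differ in how often they were called was not tested. The median log2 fold change of the 47 members was -0.03, beside -0.04 for all genes tested, with 24 members negative and 23 positive. Of all genes tested, 51.8% were negative. Of the other 41 members, 5 had no count in any library (Cdh16, Cdh17, Cdh19, Pcdha4b and Pcdhb10), and 10 in all had at most 3 counts in every library. By the annotation, Pcdha4b shares all of its exon bases with other genes. Pcdha4, also among the 10, has 404 of 5768 bases to itself. Few reads could be assigned to either, so their counts do not measure their level.

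In 2 of the members tested, Cdh18 and Pcdh1, every IHC library lay above every OHC library, as in 2.37% of all genes tested. In another 2, Cdh5 and Pcdh12, all OHC values lay above all IHC values, as in 2.22% of all genes tested. The remaining called genes, Pcdh7 and Cdh11, overlapped between the cell types in a few libraries.

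**Figure D1:**
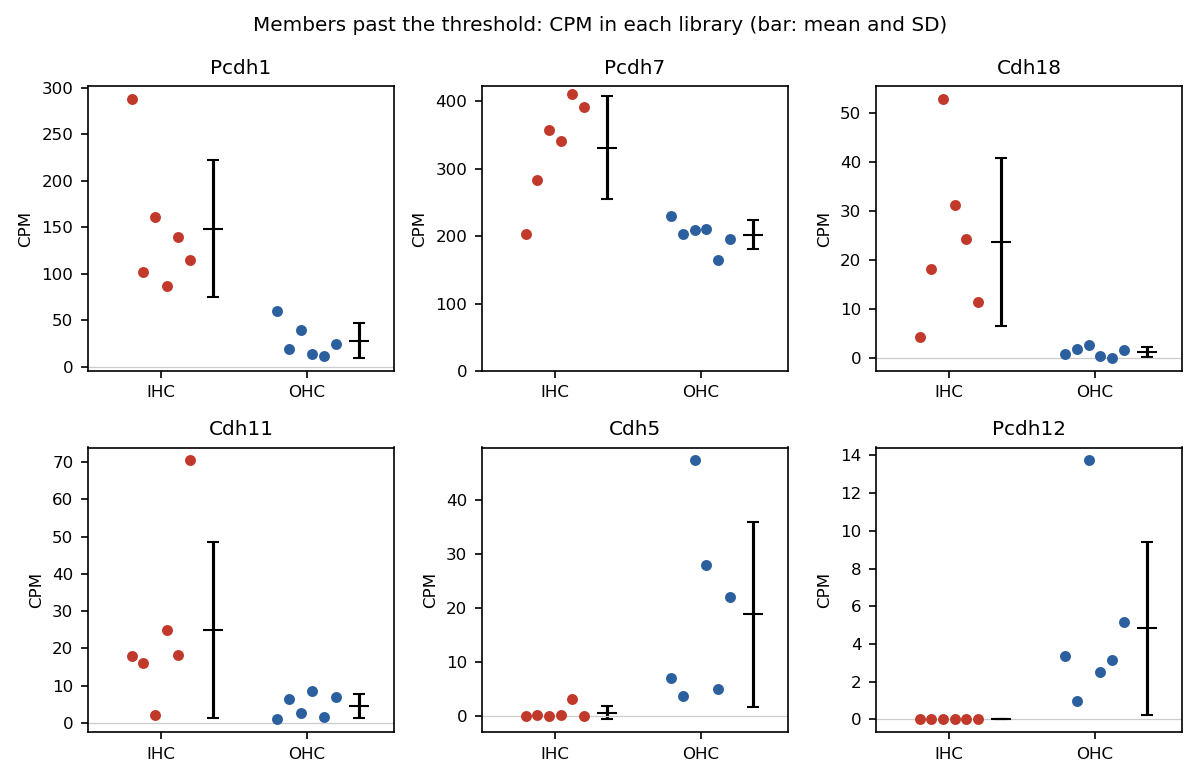
CPM (linear axes) of the 6 members past the threshold, with each point 1 library, IHCs in red, OHCs in blue, and black bars for the mean and SD of 6 libraries. Pcdh1 and Cdh18 libraries of IHCs all lie above those of OHCs, Cdh5 and Pcdh12 lie the other way, and Pcdh7 and Cdh11 each have an IHC library within the range of the OHCs.

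Among the type II cadherins, 4 of 13 were tested and 3 of these were called. The calls were 2 IHC-enriched and 1 OHC-enriched, where 3.81% and 2.44% of all genes tested were so called. Cdh18, a type II cadherin of the nervous system, had an IHC-to-OHC contrast with no overlap. Its CPM in IHC libraries was 4.45 at the lowest, 21.3 at the median and 52.9 at the highest, and in OHC libraries 0.0667, 1.31 and 2.66. The log2 fold change was -4.20 ± 0.80 (SE), with an adjusted p-value of 0.00266 from edgeR's quasi-likelihood test. IHC1 was the lowest IHC library and IHC3 the highest, more than 10 times IHC1, so the level within IHCs varied widely. Cdh18 (ENSMUSG00000040420) is on the plus strand of chromosome 15 at 22549108 to 23474504 of GRCm39. It was called in each of the 12 fits that left out 1 library, with log2 fold changes between -4.54 and -3.78.

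Cdh11, a cadherin of mesenchymal and bone-forming cells that some neurons also make, was the other IHC-enriched type II gene. IHC libraries held 2.28 CPM at the lowest, 18.1 at the median and 70.5 at the highest, and OHC libraries 0.949, 4.51 and 8.61. In 5 of the 6 IHC libraries Cdh11 was higher than in every OHC library, and the remaining one, IHC3, lay below most OHC libraries. OHCs differed from IHCs by a log2 fold change of -2.46 ± 0.71 (SE), and the adjusted p-value of edgeR's quasi-likelihood test, 0.0435, was close to the threshold. The gene stayed past the threshold in 4 of the 12 fits that left out 1 library (without IHC1, IHC2, IHC3 or OHC4), and in the other 8, which left out IHC4, IHC5, IHC6, OHC1, OHC2, OHC3, OHC5 or OHC6, the adjusted p-value was between 0.0519 and 0.143. Without IHC6, the highest library, the log2 fold change was -1.82 and the adjusted p-value 0.143. The 10 genes fixed as mesenchyme markers also differed in summed level without overlap, at 43.0 to 59.5 CPM in IHC and 7.29 to 27.5 CPM in OHC libraries, although 0 of the 6 tested were called by the same test (2 with an unadjusted p-value under 0.05, and 1 IHC-enriched by DESeq2 and by edgeR's exact test). IHC6 was the highest and IHC3 the lowest IHC library in both the mesenchyme sum (59.5 and 43.0 CPM) and Cdh11, and OHC1 was the lowest OHC library in both. The highest OHC libraries differed. OHC5 had the highest sum (27.5 CPM) and 1.53 CPM of Cdh11, and OHC4 the highest Cdh11 (8.61 CPM) and a sum of 17.8 CPM. IHC2, with a mesenchyme sum of 59.3 CPM, had 15.98 CPM of Cdh11. Lum alone had a mean of 25.1 CPM in IHCs and 6.46 CPM in OHCs. Twist1, Tbx18 and Postn had higher means in OHCs, at most 0.980 CPM. Twist2 was at 0 in every library, and the part of mesenchymal RNA in the Cdh11 result was not tested. Fewer cells of a type in a pool and less RNA of the gene per cell cannot be told apart in these bulk samples. Cdh11 (ENSMUSG00000031673) is on the minus strand of chromosome 8 at 103358726 to 103512687.

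Cdh5, known as VE-cadherin, the adhesion molecule of endothelial cell junctions, was OHC-enriched. OHC libraries held 3.63 CPM at the lowest, 14.5 at the median and 47.2 at the highest. IHC libraries held 0 at the lowest, 0.0126 at the median and 3.15 at the highest, the last value coming from IHC5 alone. The other IHC libraries were at 0.147 CPM or below. On the log2 scale the fold change was 5.06 ± 1.35 (SE), with an adjusted p-value of 0.0288 from edgeR's quasi-likelihood test, and it was 8.81 without IHC5. The call was lost without OHC3 (adjusted p = 0.0788), OHC4 (0.0565) or OHC6 (0.0540), the 3 highest libraries. Cdh5 (ENSMUSG00000031871) is on the plus strand of chromosome 8 at 104828231 to 104871143 of GRCm39.

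Other endothelial genes were found in the same libraries. The 16 endothelial markers, a list that does not contain Cdh5, summed to 0.523 to 9.89 CPM in the IHC pools, with a median of 4.19, and to 31.8 to 292 CPM in the OHC pools, with a median of 80.3. Of the 12 of these tested, 10 were OHC-enriched, beside 2.44% of all genes tested. In every IHC library 4 of the 16, Cldn5, Esam, Ptprb and Adgrf5, were at 0. Their sum was highest in OHC3 and lowest among the OHC libraries in OHC2, and the highest and lowest OHC levels of Cdh5 were in these same libraries. Among IHC libraries, IHC5 had the highest Cdh5 and a marker sum of 9.89 CPM, of which Egfl7 alone made up 9.80 CPM, while IHC2, with 8 markers above 3 counts and a sum of 8.16 CPM, had 0.147 CPM of Cdh5. The part of endothelial RNA in the Cdh5 result was not tested.

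**Figure D2:**
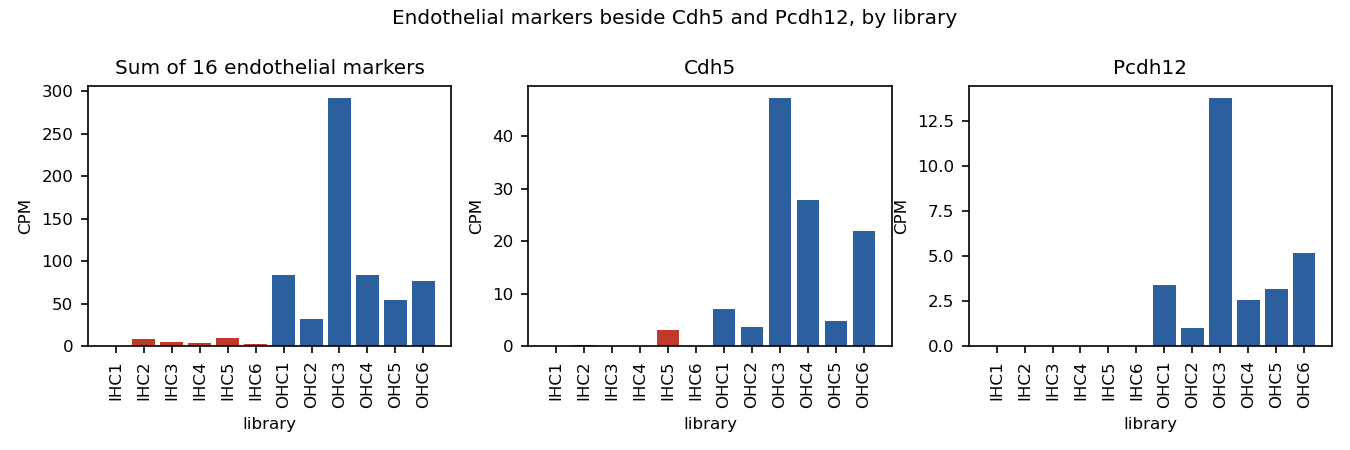
CPM (linear axes from 0) by library of the sum of 16 endothelial markers, of Cdh5 and of Pcdh12, with IHC bars in red and OHC bars in blue. OHC3 is the highest library in each panel, at 292, 47.2 and 13.7 CPM, and the marker sum is under 10 CPM in each IHC library.

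Pcdh12, the protocadherin also known as VE-cadherin-2 for its place in endothelial cells, was OHC-enriched, as was Cdh5. It had 2 counts in all in the 6 IHC libraries, with 0 in 4 of them and at most 0.0272 CPM in any. OHC libraries ranged from 0.976 to 13.7 CPM with a median of 3.28, each above every IHC library. The ratio of OHC to IHC levels was 491, with an exact 95% counting interval of 136 to 4052 set by the 2 IHC counts. The quasi-likelihood test of edgeR gave an adjusted p-value of 0.000376 and a log2 fold change of 8.52 ± 1.30 (SE), which depends on how the few IHC counts are treated. It was called in all 12 fits that left out 1 library. As for Cdh5, the highest OHC library was OHC3 and the lowest OHC2. OHC4 was above the OHC median for Cdh5 (27.9 CPM) and below it for Pcdh12 (2.53 CPM). The part of endothelial RNA in the Pcdh12 result was not tested. Pcdh12 (ENSMUSG00000024440) is on the minus strand of chromosome 18 at 38400142 to 38417455.

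The other type II cadherins were low. Cdh24 was the only other one tested, at 4.29 ± 5.09 CPM in IHCs against 2.26 ± 2.31 CPM in OHCs (SD, n = 6), with an adjusted p-value of 0.661 from edgeR's quasi-likelihood test. Cdh10 and Cdh22, cadherins of the brain, were too low to be tested in that fit and were OHC-enriched by DESeq2, with adjusted p-values of 0.0164 and 0.0116. Their levels were uneven, since Cdh10 reached 5.97 CPM in OHC5 and had an OHC median of 0.447, and Cdh22 had more than 3 counts in 4 of the 6 OHC libraries. Cdh7 reached 6.70 CPM in IHCs against 6.16 CPM in OHCs and was not tested. Cdh6, Cdh8, Cdh9 and Cdh12 had at most 17 counts in any library.

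**Figure D3:**
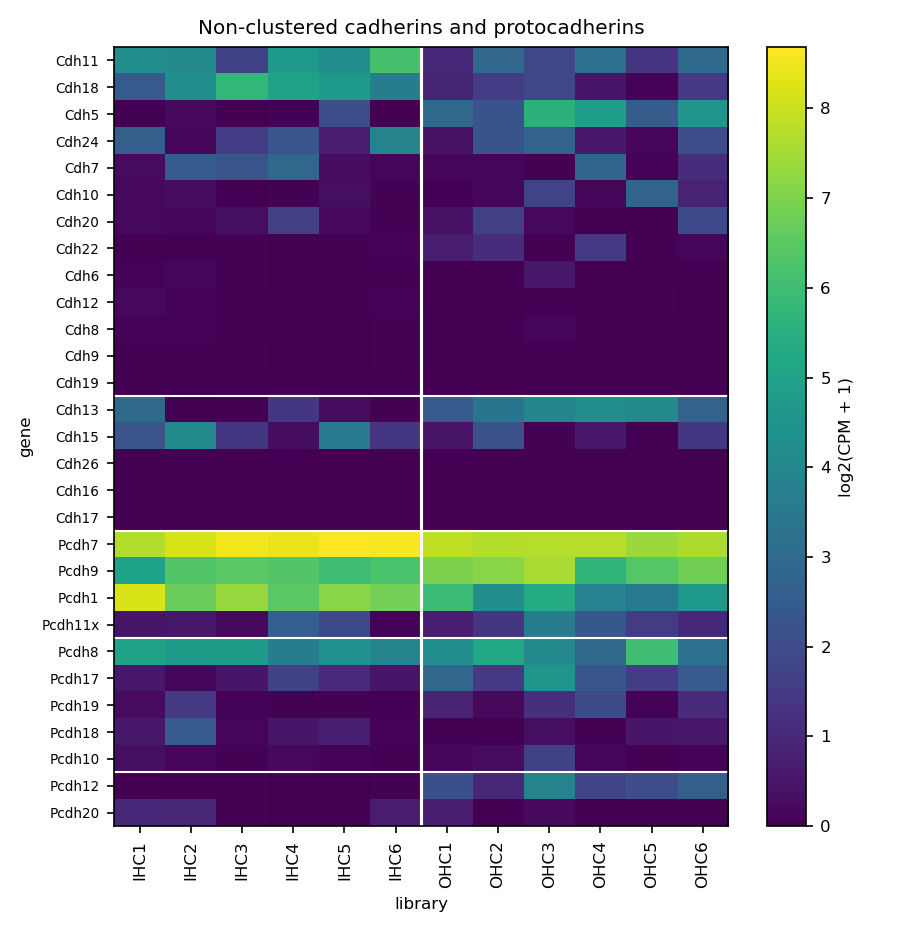
Levels of the 29 non-clustered members (rows, grouped from the top into type II, other single, delta-1, delta-2 and other protocadherins, and sorted by mean CPM within each) in the 12 libraries (columns), with colour for log2(CPM + 1). Pcdh7, Pcdh9, Pcdh1 and Pcdh8 are high in both cell types, Cdh18 is brighter in IHCs, and Cdh5 and Pcdh12 are dark in nearly all IHC libraries.

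Of the other single cadherins, 2 were tested and 0 called by edgeR's quasi-likelihood test or DESeq2, although both had an unadjusted p-value under 0.05 in the former. Cdh13, or T-cadherin, which lacks the membrane-spanning tail and is anchored by a lipid, had 4.44 CPM at the lowest, 12.2 at the median and 17.97 at the highest in OHC libraries. In IHC libraries its level was 0, 0.106 and 7.06, and 5 of the 6 lay below every OHC library. The exception was IHC1, at 7.06 CPM, which lay within the OHC range. The log2 fold change was 2.97 ± 1.22 (SE) and did not pass edgeR's quasi-likelihood test, with an adjusted p-value of 0.158. Without IHC1 it was 4.96, with an adjusted p-value of 0.0187. Cdh13 is also made by endothelial cells. Its OHC level was highest in OHC4 and lowest in OHC1, where the endothelial sums were 83.6 and 84.2 CPM, and it was 14.9 CPM in OHC3, where that sum was 292 CPM. The part of endothelial RNA in its level was not tested.

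Cdh15, the cadherin of muscle precursors and cerebellar granule cells, had 0.227 CPM at the lowest, 2.76 at the median and 16.2 at the highest in IHC libraries. OHC libraries held 0.0271, 0.430 and 3.48, so the groups overlapped, and the adjusted p-value of edgeR's quasi-likelihood test was 0.216. The single count of Cdh26 in 1 OHC library was its only one, and Cdh16 and Cdh17, cadherins of kidney and gut, had none. A count of 0 in a library allows a level of up to 3 counts there, so these genes were not detectable at this depth.

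The delta-1 protocadherins were the most abundant members. Per kilobase of exon not shared with another gene, the mean levels over all 12 libraries were 18.02 CPM for Pcdh7, 10.1 for Pcdh9, 9.998 for Pcdh1 and 0.182 for Pcdh11x, beside 9.47 for the delta-2 gene Pcdh8. The last value depends on the length used, and was 5.07 per kilobase of all exon bases, since 2108 of the 4538 bases of Pcdh8 are shared with an antisense gene and the strand setting of the counting is not known. The next members on that scale were Pcdhga7 of the gamma cluster, at 4.51, and Pcdhac2 of the alpha cluster, at 4.42. Pcdhga7 has 2562 bases unshared with any gene and 3149 unshared with genes on its own strand. Pcdhac2 has 3140 by both counts, so the order of these genes also depends on the strand setting. Pcdh9 and Pcdh1 differed by less than the spread between libraries on that scale.

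Pcdh1, a delta-1 protocadherin made by epithelia and neurons, was IHC-enriched. IHC libraries held 86.3 CPM at the lowest, 127 at the median and 288 at the highest, and OHC libraries 11.1, 21.9 and 60.1. All IHC libraries lay above all OHC libraries, with IHC1 and OHC1 the highest of each cell type. OHCs differed from IHCs by a log2 fold change of -2.41 ± 0.40 (SE), with an adjusted p-value of 0.000907 from edgeR's quasi-likelihood test. It was called in all 12 fits that left out 1 library, with log2 fold changes of -2.80 to -2.12. Pcdh1 (ENSMUSG00000051375) is on the minus strand of chromosome 18 at 38318963 to 38345869, close to Pcdh12 on the same strand, and the pair differed between the cell types in opposite directions.

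Pcdh7, a delta-1 protocadherin of the nervous system, had the highest level of all members in both cell types. IHC libraries held 203 CPM at the lowest, 350 at the median and 410 at the highest, and OHC libraries 164, 206 and 230. In 5 of 6 IHC libraries the level was above that of every OHC library, while IHC1 lay within the OHC range. On the log2 scale the fold change was -0.71 ± 0.20 (SE), with an adjusted p-value of 0.0342 from edgeR's quasi-likelihood test. It stayed past the threshold only in 3 of the 12 fits that left out 1 library (IHC1, IHC2 or OHC1), with adjusted p-values of 0.0517 to 0.0732 in the other 9, which left out IHC3, IHC4, IHC5, IHC6, OHC2, OHC3, OHC4, OHC5 or OHC6. The log2 fold change stayed between -0.83 and -0.65 in those 12 fits. Pcdh7 (ENSMUSG00000029108) is on the plus strand of chromosome 5 at 57875004 to 58290581 of GRCm39.

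Summed levels of markers of other cells around IHCs were also higher in IHC libraries, and are given beside Pcdh1, Pcdh7 and Cdh18. The 6 supporting cell markers summed to 225 to 715 CPM in IHC and 50.5 to 221 CPM in OHC libraries. Of the 6 tested, 2, Sox2 and Gjb2, were IHC-enriched, beside 3.81% of all genes tested. Gjb2 had the largest IHC mean of these, 216 CPM. Hes5 was higher in OHCs on average, at 20.2 against 8.08 CPM, and was not called. The 6 markers of the greater epithelial ridge, the epithelium next to IHCs, summed to 756 to 1912 and 158 to 690 CPM, with 2 of 4 tested IHC-enriched (Tecta and Otog). Tecta had the largest IHC mean of these, 772 CPM. Otoa (9.70 against 6.38 CPM, not called) and Epyc (2.94 against 0.0327 CPM, not tested) were higher in OHCs on average. For the 6 genes listed for spiral ganglion neurons the sums were 825 to 1511 and 216 to 432 CPM, with 3 of 4 tested IHC-enriched, but nearly all of that sum was Nefl and Nefm, and Prph and Scn9a had at most 2 counts in any library. None of these sums overlapped between the cell types, and their part in the 3 results was not tested. IHC1, the highest library for Pcdh1, had the lowest supporting cell and ridge sums of the IHC libraries, 225 and 756 CPM, and the highest sum for spiral ganglion neurons, 1511 CPM. OHC1, the highest OHC library for Pcdh1, also had the highest spiral ganglion sum of the OHC libraries, 432 CPM. Among IHC libraries, Cdh18 and Pcdh7 were lowest in IHC1, at 4.45 and 203 CPM. Cdh18 was highest in IHC3, at 52.9 CPM, where the supporting cell and ridge sums were 298 and 832 CPM. In IHC5, the highest IHC library for both sums (715 and 1912 CPM), Cdh18 was at 24.4 CPM and Pcdh7 at its highest, 410 CPM. The hair cell markers summed to 6778 to 11183 CPM in IHC and 5650 to 7057 CPM in OHC libraries. Of the 10, 3 were IHC-enriched (Gfi1, Espn and Otof). Otof, also a gene of the IHC label check, had the largest difference in means, 2260 CPM in IHCs and 479 CPM in OHCs. Myo6 (3162 against 2277 CPM) and Pcp4 (555 against 519 CPM) were higher in OHCs on average. The highest hair cell sum of each cell type was also in IHC1 and in OHC1. The sums of glia, pericyte and macrophage markers overlapped between the groups, and erythroid markers reached 3.20 CPM at most. Of the glia and pericyte markers, 4 tested in each list, and the 1 macrophage gene tested, edgeR's quasi-likelihood test called 0, with 1 in each list at an unadjusted p-value under 0.05. DESeq2 called 0 for glia and pericytes, and 1 macrophage gene in each direction.

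Pcdh9, the third abundant delta-1 gene, was higher in OHCs on average, at 117 ± 48.6 CPM against 69.6 ± 20.3 CPM in IHCs (SD, n = 6). In 4 of 6 OHC libraries it was above every IHC library, but the log2 fold change of 0.75 ± 0.31 (SE) did not pass edgeR's quasi-likelihood test (adjusted p = 0.154). Its fold change thus had the sign opposite to those of Pcdh1 and Pcdh7. Pcdh11x, an X-linked delta-1 gene, ranged from 0.0545 to 5.11 CPM in IHCs and from 0.668 to 11.9 CPM in OHCs, with an adjusted p-value of 0.545 in the same test.

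Among the delta-2 protocadherins, several of which recruit actin regulators through their tails, Pcdh8 and Pcdh17 were tested and neither was called by edgeR's quasi-likelihood test. Pcdh8 held 11.6 CPM at the lowest, 22.6 at the median and 31.4 at the highest in IHC libraries and 6.98, 17.0 and 63.9 in OHC libraries. The highest OHC library, OHC5, was above all others, and the groups otherwise overlapped. Its log2 fold change was 0.21 ± 0.51 (SE), with an adjusted p-value of 0.850 from edgeR's quasi-likelihood test, and it was -0.35 without OHC5.

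Pcdh17 was nearer to the threshold. OHC libraries held 1.80 CPM at the lowest, 4.33 at the median and 23.1 at the highest, and IHC libraries 0.0733, 0.451 and 2.22. Only IHC4, at 2.22 CPM, lay within the OHC range, above OHC2 and OHC5. The log2 fold change was 3.16 ± 0.97 (SE), with an adjusted p-value of 0.0577 from edgeR's quasi-likelihood test, 0.0154 from its exact test and 0.000879 from DESeq2. It was past the threshold without IHC4 (adjusted p = 0.0356). Its highest library was OHC3, as for Cdh5 and Pcdh12, and the part of endothelial RNA in its level was not tested.

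The remaining non-clustered protocadherins were too low to be tested. Pcdh19, an X-linked gene mutated in a form of epilepsy, had more than 3 counts in 5 OHC libraries and 1 IHC library, with up to 3.02 CPM. Pcdh18 reached 4.64 CPM in IHC2 and at most 0.674 CPM in any other library. Pcdh10 had a single higher library, OHC3 at 2.23 CPM, and Pcdh20 stayed under 1 CPM in every library.

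The clustered protocadherins lie on chromosome 18 between 37063237 and 37975014 on the plus strand. Reads on the constant exons of the alpha and gamma clusters fit several genes at once and are not assigned to any, so the level of a member there is that of its own variable exon. By the annotation, the median member of the alpha cluster had 46.3% of its exon bases to itself, that of the gamma cluster 52.9% and that of the beta cluster, which has no constant exons, 100%. Genes of a cluster are also alike in sequence, and reads that fit several of them equally well are not counted, so values of single members are uncertain by an amount the counts do not show.

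**Figure D4:**
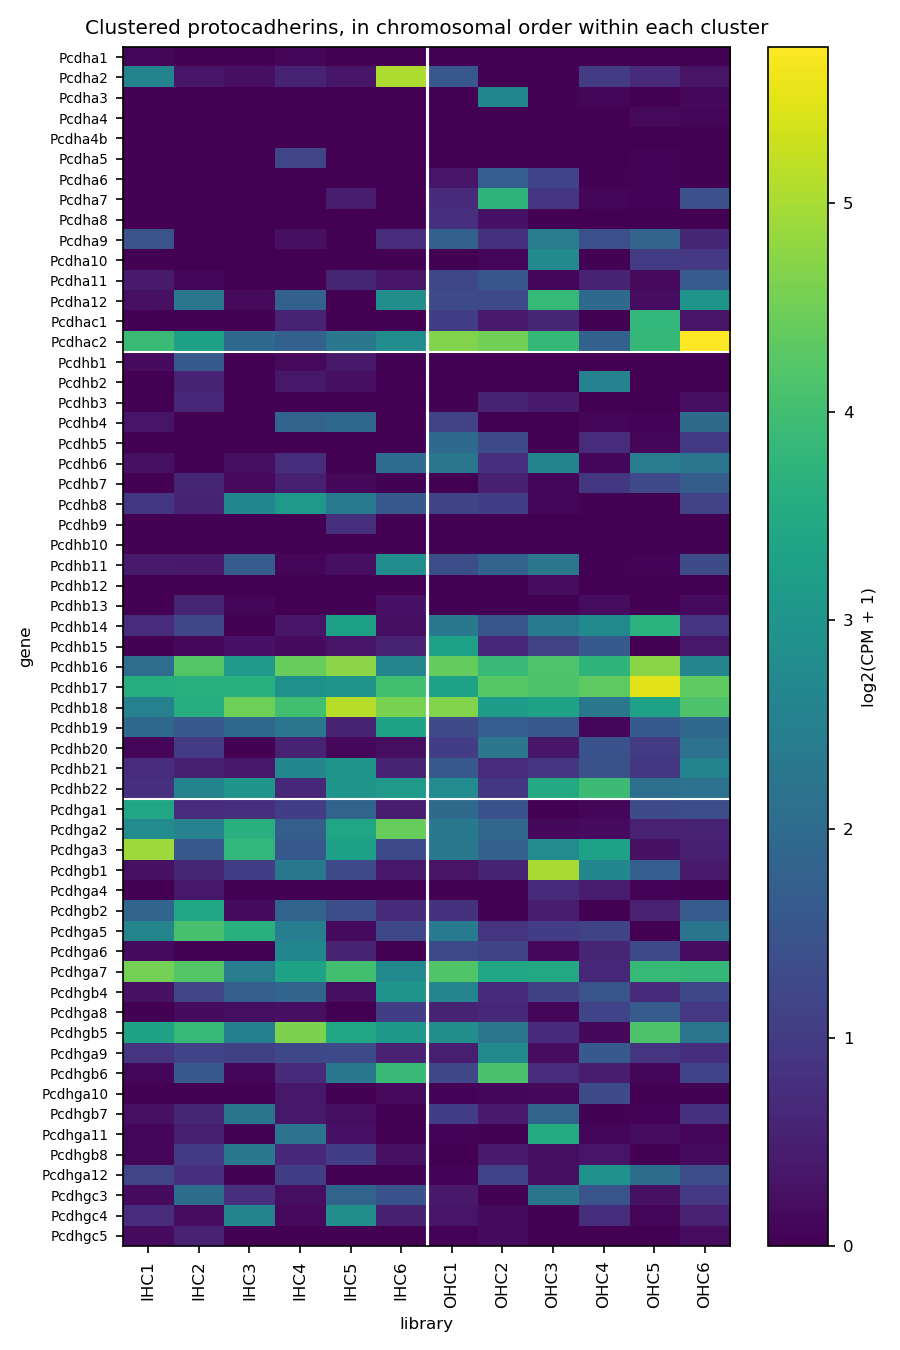
Levels of the 59 clustered protocadherins (rows, in chromosomal order within the alpha, beta and gamma clusters from the top) in the 12 libraries (columns), with colour for log2(CPM + 1). Most cells of the map are dark, Pcdhac2, Pcdhb16, Pcdhb17, Pcdhb18, Pcdhga7 and Pcdhgb5 form the brightest rows, and other bright cells belong to single libraries.

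Many members were detected in each pool, each at a low level. Members with more than 3 counts numbered 3 to 6 of 15 alpha genes in the IHC pools, with a median of 4, and 5 to 9 in the OHC pools, with a median of 8. In the beta cluster they numbered 10 to 16 of 22 in IHC and 10 to 17 in OHC libraries, and in the gamma cluster 10 to 20 of 22 and 14 to 19. IHC1, the smallest library after normalisation, had the fewest of the IHC libraries in the beta and gamma clusters. The member with the highest level changed from library to library. In the gamma cluster it was 1 of 4 different genes among the 6 IHC libraries and 1 of 5 among the 6 OHC libraries, and took 20.3% to 35.98% and 26.1% to 44.9% of the cluster's summed CPM. In the alpha cluster Pcdhac2 led in 5 IHC and 4 OHC libraries, with Pcdha2 leading in the other IHC library and Pcdha12 in the other 2 OHC libraries.

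The spread between libraries of clustered genes was wide. The median coefficient of variation over the 34 tested was 113% in IHCs and 92.6% in OHCs, beside 99.9% and 87.6% over the 13 non-clustered members tested. All genes tested had 62.8% and 51.3%, and the 6375 of these within the level range of the clustered genes, 0.516 to 15.7 CPM, had 92.9% and 81.6%. The clustered genes had a median of 2.07 CPM within that range and the others 4.77 CPM, and the difference in spread was not tested.

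Summed over all members, the alpha cluster held 15.9 ± 15.8 CPM in IHCs against 37.6 ± 18.8 CPM in OHCs, the beta cluster 62.4 ± 24.0 and 76.0 ± 16.6, and the gamma cluster 70.0 ± 9.85 and 46.5 ± 13.0 (SD, n = 6). The sums overlapped between the cell types in every cluster. For the alpha cluster, the IHC libraries ran from 3.25 to 45.2 CPM, with Pcdha2 the leading gene in the highest, IHC6, and the OHC libraries from 8.66 to 65.6 CPM. IHC1, IHC2 and IHC6 lay within the OHC range, and OHC1, OHC3, OHC4 and OHC5 within the IHC range. For the gamma cluster, only OHC3, at 68.9 CPM, lay within the IHC range of 62.5 to 87.5 CPM. The sums were not tested.

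**Figure D5:**
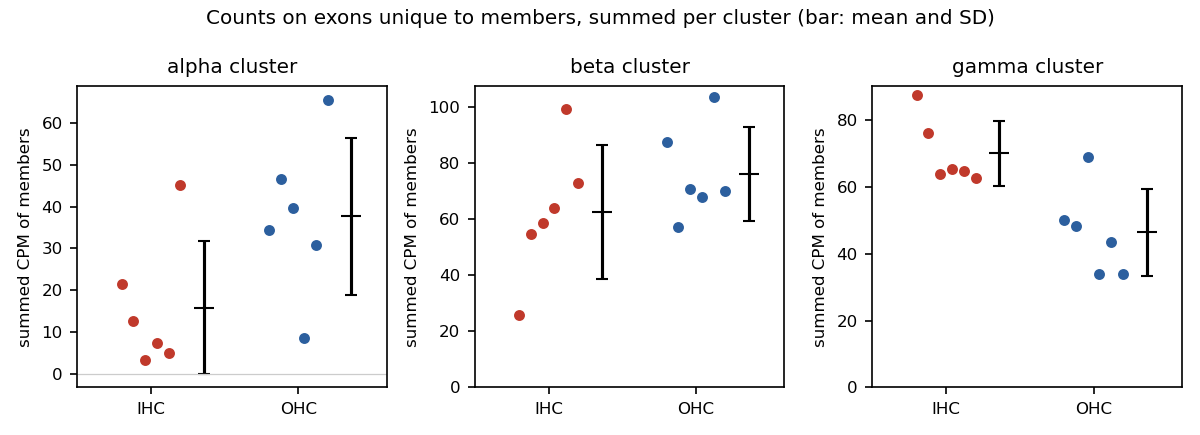
Summed CPM of the members of the alpha, beta and gamma clusters (linear axes from 0), with each point 1 library, IHCs in red, OHCs in blue, and black bars for the mean and SD of 6 libraries. The groups overlap in each cluster, most widely in the beta cluster, and OHC3 is the only OHC library within the IHC range of the gamma cluster.

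In the alpha cluster, 4 of 15 genes were tested and 3 of these had a positive log2 fold change, with a median of 1.40. Pcdhac2, a C-type gene of the kind that neurons use more constantly than the others, was the highest, at 4.42 CPM per kilobase of its own exons over the 12 libraries. IHC libraries held 2.47 CPM at the lowest, 4.996 at the median and 14.1 at the highest, and OHC libraries 2.44, 17.7 and 52.8. In 3 of 6 OHC libraries was above that of every IHC library, but OHC4 lay below them all. Its log2 fold change was 1.76 ± 0.65 (SE), with an adjusted p-value of 0.116 from edgeR's quasi-likelihood test and 0.0394 from DESeq2.

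Pcdha2 had 32.0 CPM in IHC6, 5.04 in IHC1 and at most 1.94 in any OHC library, and its log2 fold change of -3.30 ± 1.43 (SE) did not pass edgeR's quasi-likelihood test (adjusted p = 0.180). Pcdha12 was at 2.11 ± 2.504 CPM in IHCs against 4.38 ± 5.04 CPM in OHCs (SD, n = 6), with an adjusted p-value of 0.654 in that test. Some alpha genes too low for the test were seen almost only in OHC pools. Pcdha6 had no count in any IHC library and 0.0234 to 2.29 CPM in OHC libraries, and Pcdha10 had 1 count in all IHC libraries and up to 5.64 CPM in OHC3. Pcdha7 had up to 0.368 CPM in IHCs and up to 12.3 CPM in OHCs, and Pcdha3 had no count in IHCs and 5.24 CPM in OHC2. Pcdha5 went the other way, at 1.28 CPM in IHC4 with 1 count in all OHC libraries. Pcdha1 had counts in IHC libraries only, at most 3 in any. DESeq2 called Pcdha6, Pcdha7 and Pcdha10 OHC-enriched, with adjusted p-values of 0.00234, 0.00803 and 0.00111, and the OHC levels behind these calls came mostly from 1 to 3 libraries.

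In the beta cluster, 13 of 22 genes were tested, 9 with a positive and 4 with a negative log2 fold change (median 0.46). The highest per kilobase were neighbours on the chromosome, Pcdhb17 at 3.36 CPM per kilobase, Pcdhb18 at 2.98 and Pcdhb16 at 2.77. Pcdhb17 held 6.35 CPM at the lowest, 11.1 at the median and 15.2 at the highest in IHC libraries and 8.86, 18.6 and 44.1 in OHC libraries. In 5 of 6 OHC libraries it was above every IHC library, with a log2 fold change of 1.02 ± 0.48 (SE) and an adjusted p-value of 0.219 from edgeR's quasi-likelihood test. Pcdhb18 had 18.3 ± 10.3 CPM in IHCs and 11.8 ± 7.40 in OHCs, and Pcdhb16 13.3 ± 9.27 and 15.6 ± 7.02 (SD, n = 6), with adjusted p-values of 0.540 and 0.848 in that test.

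Pcdhb15 and Pcdhb20 were called OHC-enriched by DESeq2 but not by edgeR's quasi-likelihood test, and Pcdhb15 also by edgeR's exact test (adjusted p = 0.0491). Pcdhb15 had at most 0.463 CPM in IHC libraries and 0 to 8.77 CPM in OHC libraries, with adjusted p-values of 0.108 in edgeR and 0.0171 in DESeq2. Pcdhb20 had 0.309 ± 0.387 CPM in IHCs against 1.90 ± 1.45 CPM in OHCs (SD, n = 6), with adjusted p-values of 0.141 and 0.0205. Of the beta genes too low for the quasi-likelihood test, Pcdhb5 had 1 count in all IHC libraries and up to 2.93 CPM in OHCs (DESeq2 adjusted p = 6.39e-05), and Pcdhb1 had 2 counts in all OHC libraries and up to 2.10 CPM in IHCs (DESeq2 adjusted p = 0.0152).

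In the gamma cluster, 17 of 22 genes were tested, 13 with a negative and 4 with a positive log2 fold change (median -0.27). Of all genes tested, 51.8% were negative, and the split of signs was not tested in any of the clusters. Pcdhga7 was the highest, at 4.51 CPM per kilobase of its own exons, followed by Pcdhga3 at 2.46 and Pcdhga2 at 1.96. Pcdhga7 had 12.4 ± 7.13 CPM in IHCs against 10.7 ± 5.70 CPM in OHCs (SD, n = 6), with an adjusted p-value of 0.883 from edgeR's quasi-likelihood test. Pcdhga2 differed more, with 2.37 CPM at the lowest, 7.61 at the median and 20.2 at the highest in IHC libraries and 0.0814, 0.451 and 4.01 in OHC libraries. In 5 of 6 IHC libraries it was above every OHC library. On the log2 scale the fold change was -2.78 ± 0.98 (SE), with an adjusted p-value of 0.0982 in edgeR's quasi-likelihood test, 0.0392 in its exact test and 0.0106 in DESeq2.

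Pcdhga3 reached 28.8 CPM in IHC1 and ranged from 0.200 to 8.84 CPM in OHCs, with an adjusted p-value of 0.423 from edgeR's quasi-likelihood test. Pcdhgc4, a C-type gene on which some neurons depend for survival, had 0.101 to 6.16 CPM in IHCs and 0 to 0.698 CPM in OHCs. It passed in DESeq2 (adjusted p = 0.0463) and not in edgeR's quasi-likelihood test (adjusted p = 0.161). DESeq2 also called Pcdhgb8, which was too low for the quasi-likelihood test, IHC-enriched (adjusted p = 0.0465).

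Genes known to act on or with these members were measured as 3 lists. Of all genes tested, 3.81% were IHC-enriched and 2.44% OHC-enriched. Whether the calls in these lists were more frequent than that was not tested. Of 20 other cadherin superfamily genes (the Fat and Dachsous giants, calsyntenins, desmosomal cadherins and cadherin-related genes), 10 were tested and 1 was called. This was Cdhr1, known for its part in photoreceptor outer segments, at 0.727 ± 0.766 CPM in IHCs against 11.2 ± 6.89 CPM in OHCs (SD, n = 6), with a log2 fold change of 3.94 and an adjusted p-value of 0.0138 from edgeR's quasi-likelihood test. Clstn1, a calsyntenin of neuronal transport, and Fat3 had the highest counts of the list, at mean CPM of 71.6 and 48.9 over the 12 libraries, and neither was called.

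Of 12 genes that set which clustered promoters are used (CTCF, cohesin and its loaders, DNA methyltransferases and silencers), all were tested and 2 were called in opposite directions. Stag2, a cohesin subunit, was OHC-enriched, at 54.5 ± 18.1 CPM in IHCs against 112 ± 28.5 CPM in OHCs (SD, n = 6), with a log2 fold change of 1.04 and an adjusted p-value of 0.0284 from edgeR's quasi-likelihood test. Dnmt3a, a DNA methyltransferase, had 167 ± 55.4 CPM in IHCs against 89.1 ± 29.0 in OHCs, a log2 fold change of -0.90 and an adjusted p-value of 0.0499 in that test, at the edge of the threshold. Wapl and Nipbl, which release and load cohesin, were the highest of the list, with means of 318 and 170 CPM, and Ctcf itself had 50.5 ± 14.6 and 69.4 ± 13.4 CPM, and none of these 3 was called.

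Of 12 signalling and processing partners of protocadherins (the WAVE complex that binds their tails, focal adhesion kinases and proteases), 11 were tested and 1 was called. Ptk2, the focal adhesion kinase that clustered protocadherins inhibit, was OHC-enriched, at 45.1 ± 8.36 CPM in IHCs against 92.2 ± 27.8 CPM in OHCs (SD, n = 6), with a log2 fold change of 1.03 and an adjusted p-value of 0.0228 from edgeR's quasi-likelihood test. Cyfip2, of the WAVE complex, and Adam10, a protease that cuts protocadherins, had the highest means of the list, 685 and 210 CPM, and were not called.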

How the data were processed

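For each of 12 libraries the authors deposited a file of read counts per gene, not normalised. By the methods and labels, reads were trimmed with Trimmomatic, aligned to GRCm39 with STAR and counted with HTSeq, which leaves reads on exons shared by several genes unassigned (the ambiguous line held 0.629% to 1.21% of all lines). Versions and the strand setting are not given in the sources used here. HTSeq's summary lines were left out. Genes were kept with filterByExpr (minimum count 10, minimum total 15), normalised by TMM and tested with glmQLFit and glmQLFTest (edgeR 4.0.16, limma 3.58.1, R 4.3.3), 6 IHC against 6 OHC libraries, without covariates. DESeq2 1.42.0, edgeR's exact test, other filters and size factors, a replicate block and leaving out each library were alternatives. Python 3.11.15 was used otherwise. Coordinates and unshared exon bases follow GENCODE vM39 (GRCm39), which held 98.8% of the gene identifiers. The study names vM27. Levels per length were not computed for 3 genes with fewer than 1000 unshared bases. Members named are those called, the 3 highest per length in each subfamily, tested members that DESeq2 but not the quasi-likelihood test called and, of related lists, the called genes and the 2 highest. Other low members were named after their values were seen. Members and lists were chosen with earlier results of these data known.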

Additional observations from a re-analysis of the deposited data

Results flagged for a closer look

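Of 49 groups of 6 libraries examined among the named members, 11 (22.4%) held a library that stood apart from the other 5 by Dixon's 95% criterion, beside 19.2% of such groups over all genes tested. The criterion flags about 1 in 20 groups by chance only where values are normally distributed, which these CPM values are not known to be. The 11 were spread over 7 libraries, with at most 2 in any of them, and 3 were in clustered genes. Among IHC libraries, Cdh11 was at 70.5 CPM in IHC6, against 2.28 to 24.8 in the others. Cdh13 was at 7.06 CPM in IHC1, against 0 to 1.56, and Cdh5 at 3.15 CPM in IHC5, against 0 to 0.147. Pcdh1 was at 288 CPM in IHC1, against 86.3 to 161. Pcdh18 was at 4.64 CPM in IHC2, against 0.0545 to 0.674, and Pcdha2 at 32.0 CPM in IHC6, against 0.183 to 5.04. Among OHC libraries, Pcdh12 was at 13.7 CPM in OHC3, against 0.976 to 5.15, and Pcdh17 at 23.1 CPM in the same library, against 1.80 to 6.23. Pcdh20 was at 0.668 CPM in OHC1, against 0 to 0.163, and Pcdhb15 at 8.77 CPM in OHC1, against 0 to 2.09. Pcdhb17 was at 44.1 CPM in OHC5, against 8.86 to 19.2.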

How the results depend on the processing

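IHC-enriched members numbered 4 with edgeR's quasi-likelihood test, 8 with DESeq2 (67 members with an adjusted p), 2 with the replicate block and 2 to 4 when 1 library was left out. OHC-enriched members numbered 2, and 4 with edgeR's exact test, 12 with DESeq2, 6 with no filter on low counts, 0 with at least 10 counts in every library and 1 to 3 when 1 library was left out. DESeq2 called 7.57% of all genes IHC-enriched and 8.98% OHC-enriched, and the fit with no filter called 3.34% OHC-enriched, and whether the members rose more was not tested. Under that strict filter 12 members were left, and Cdh5, Cdh18 and Pcdh12 were not among those tested. Other size factors and leaving out ribosomal RNA genes called the same 6 genes. Deviations of same-numbered libraries from their group means correlated at -0.03 to 0.02. These correlations cannot show whether same-numbered pools shared pups, since other variation between libraries could hide it, and the labels do not say. With the replicate block, Pcdh7 and Cdh11 were not called (adjusted p = 0.0818 and 0.0551), Cdh13 was (log2 fold change 6.16, adjusted p = 0.0206), and Cdh5 moved to 8.03. The log2 fold change of Pcdh8 (0.21) turned to -0.17 with the replicate block and to -0.35 without OHC5 (-0.35 to 0.39 over the fits without 1 library), and that of Pcdhga7 (-0.21) turned positive without IHC1 and without OHC4 (-0.42 to 0.039 over those fits), all with no call. Cdh18, Pcdh1 and Pcdh12 were called in every fit that tested them. The causes of these changes were not tested. Members at a few CPM are limited by depth, and no statement is made on their absence.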
